A study of Mus musculus with 8 samples.

Results

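The EGR, NR4A and IER genes are immediate early genes, which a cell transcribes within minutes of a stimulus without first making new protein. The 10 genes described here are Egr1, Egr2 and Egr3, their corepressor gene Nab2, the orphan nuclear receptor genes Nr4a1, Nr4a2 and Nr4a3, and Ier2, Ier3 and Ier5. They were chosen by symbol from the 53242 genes in the deposited tables, with earlier results of these data known, by a rule that uses no measured value. All 10 were among the 14218 genes that passed the filter on low counts.

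RNA was sequenced from splenic B cells of C57BL/6 mice aged 8 to 12 weeks, of the genotypes Eif4a1+/+ CD23-cre (control) and Eif4a1fl/fl CD23-cre (4A1 KO), so both groups carried Cre, driven by the Cd23 promoter, which is active in B cells from the late immature stage. EIF4A1 is an RNA helicase that helps ribosomes load on capped mRNA. IL4 (40 ng/ml) was present during 24 h of culture on irradiated CD40LB cells, fibroblasts engineered to display CD40 ligand and to make BAFF, which were then removed with magnetic beads. There were 4 libraries per genotype, numbered 1 to 4, each from the cells of a single mouse. Batch A consisted of replicate 1 (male) and replicate 2 (female), and batch B of replicate 3 (male) and replicate 4 (female). The first replicate of each genotype was excluded from the fitted comparison because its cells had low viability after isolation. Therefore n = 3 per genotype unless 8 libraries are named.

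Immediate early genes are switched on by transcription factors that are already in the cell, chiefly SRF with its ERK-activated partners at CArG boxes, and CREB at cAMP response elements. In B cells, antigen receptor and CD40 signals induce the EGR zinc finger factors and the NR4A receptors. NAB2 binds EGR1, EGR2 and EGR3, represses their activity, and is itself an EGR target. NR4A1, also called Nur77, is widely used as a reporter of antigen receptor signalling. Their mRNAs are mostly short-lived.

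The start regions of the genes were searched for letter matches to such sites, which do not show which inputs act on a gene. RefSeq windows (build GRCm38.p6) were found for 7 of the 10 genes, and the 250 bases before the annotated start were searched on both strands. Egr1, Egr3 and Ier2 had no entry. The Egr2 window held a CArG box, which 1.467% of the 32851 mouse windows in the table held. Windows of all 3 NR4A genes held 4 copies of TGACG, the half-site of the cAMP response element. Of these, 2 in Nr4a1 and 3 in Nr4a3 lay before the first base of the canonical transcript. The start of that transcript was not found in the windows of Nr4a2 and Nab2. At least 4 copies were found in 45 of the 32851 windows, or 0.137%, and at least 1 copy in 17.765%. The Egr2 window, the 1 of 5 nearest the start of the canonical transcript, held 2 copies. A match to GCGNGGGCG, a site bound by EGR proteins, was found in the windows of Nr4a1 and Nr4a2 and in 4.697% of all windows. The full element TGACGTCA, the AP-1 site TGANTCA and the NR4A site AAAGGTCA were in none of the 7 windows, against 1.546%, 6.749% and 1.336% of all windows, and the windows of Nab2, Ier3 and Ier5 held none of the 6 motifs. These are matches of letters and not measured binding.

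The stretches below are shown for the CArG box of Egr2 and the half-sites of Nr4a1 and Nr4a3, with the CArG box and the half-sites in capitals. Each ends just before the first base of the gene's canonical transcript, so matches past that base are not in it. The Egr2 stretch is chr10:67537619-67537861, that of Nr4a1 is chr15:101266596-101266778 and that of Nr4a3 is chr4:48045055-48045152, all on the plus strand.
Egr2: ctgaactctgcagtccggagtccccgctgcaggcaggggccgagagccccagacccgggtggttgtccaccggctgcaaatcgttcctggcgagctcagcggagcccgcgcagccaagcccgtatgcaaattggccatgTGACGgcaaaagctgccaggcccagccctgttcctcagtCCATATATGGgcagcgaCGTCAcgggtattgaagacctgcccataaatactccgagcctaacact
Nr4a1: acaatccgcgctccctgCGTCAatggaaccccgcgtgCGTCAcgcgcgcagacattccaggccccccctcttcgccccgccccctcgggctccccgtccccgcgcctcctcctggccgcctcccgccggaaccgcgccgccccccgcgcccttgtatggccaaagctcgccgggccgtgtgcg
Nr4a3: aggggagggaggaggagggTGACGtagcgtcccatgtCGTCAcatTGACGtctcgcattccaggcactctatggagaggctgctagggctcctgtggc

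Of these genes, 4 of 10 were higher in 4A1 KO B cells at an adjusted p under 0.05 and a log2 fold change above 0.5: Egr1, Egr2, Nr4a2 and Nr4a3. By edgeR 0 were lower, and 0 had a negative fold change at an unadjusted p under 0.05. DESeq2 and limma also called 0 lower. Over all genes tested, 11.6% were called higher and 13.7% lower by the same rule. Egr1 and Egr2 rose more than 2-fold in this fit, and Egr1 less than 2-fold under DESeq2 with shrinkage (log2 fold change 0.78). Egr3, Ier2, Ier3 and Ier5 did not pass the test, with fitted log2 fold changes between -0.14 and 0.05. Nab2 and Nr4a1 had adjusted p-values under 0.05 at smaller folds, which left them uncalled. In bulk RNA, a larger share of cells that transcribe a gene and more RNA per cell cannot be told apart.

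**Figure D1:**
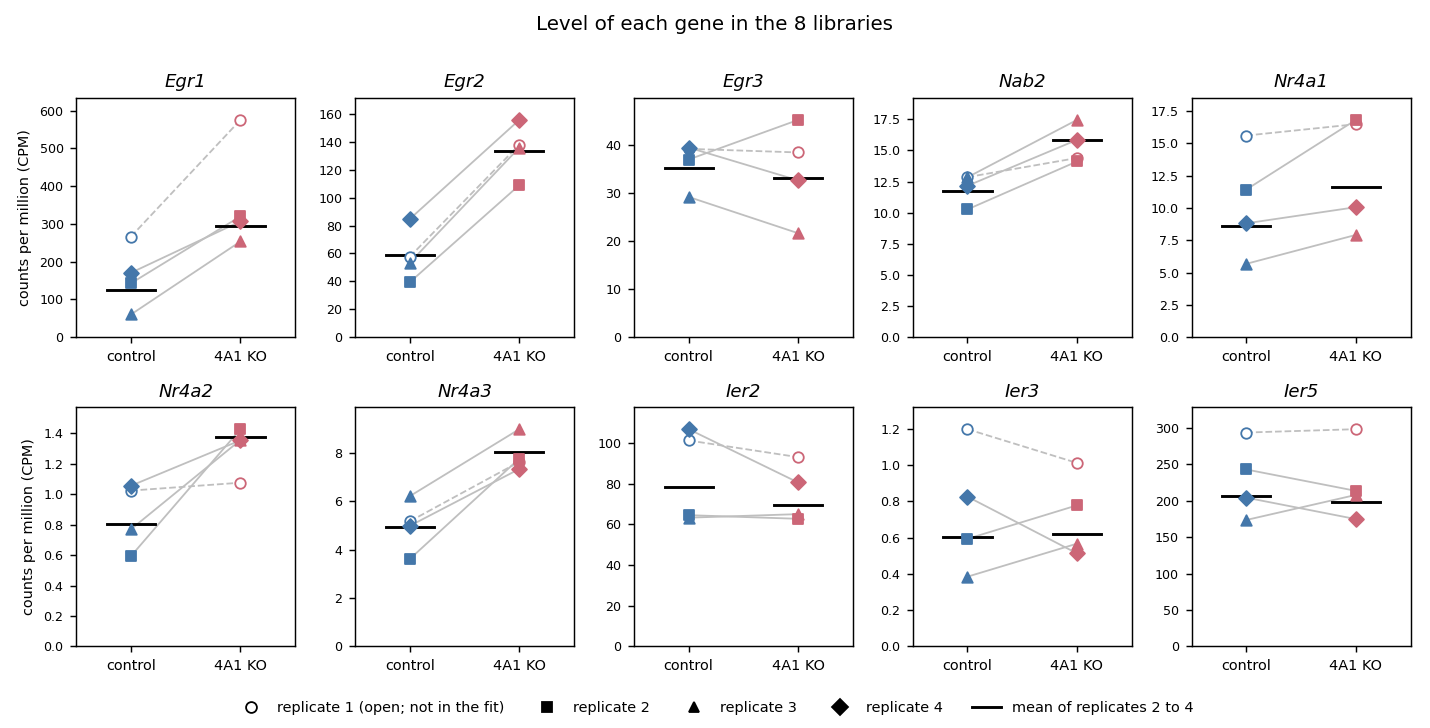
CPM (read counts scaled to a common library size, vertical axis from 0 with its own range for each gene) of the 10 genes in control (blue) and 4A1 KO (red) libraries, with grey lines between libraries of the same replicate number and bars at the mean of replicates 2 to 4. The lines rise in all 4 pairs for Egr1, Egr2, Nab2, Nr4a1, Nr4a2 and Nr4a3 and go both ways for Egr3, Ier2, Ier3 and Ier5.

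Levels are given as CPM, read counts scaled to a common library size. Egr1, the founding EGR factor, was counted at 142.8, 60.2 and 170.6 CPM in controls 2, 3 and 4 and at 320.1, 253.6 and 306.7 CPM in 4A1 KO 2, 3 and 4. All 3 4A1 KO libraries thus lay above all 3 controls, and control 3 stood well below the other controls. The fitted log2 fold change was 1.35 ± 0.18 (SE, n = 3, adjusted p = 3.38e-04), and the pairs 2, 3 and 4 gave 1.16, 2.08 and 0.85. Replicate 1 had more Egr1 than any other library of its genotype, at 266.4 CPM in control and 575.5 CPM in 4A1 KO. With it, the groups overlapped, because control 1 was above 4A1 KO 3 (exact two-sided permutation test over 8 libraries, p = 0.0571). The pair itself gave a log2 ratio of 1.11.

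Egr2, which with Egr3 has been tied to restraint of lymphocyte activation, was counted at 39.4, 53.4 and 84.7 CPM in controls 2, 3 and 4. The 4A1 KO libraries held 108.9, 135.8 and 155.7 CPM, each above every control. The log2 fold change was 1.23 ± 0.10 (SE, n = 3, adjusted p = 2.78e-05), with the smallest standard error, relative to its size, of the 10 genes. Replicate 1 lay in the same ranges, at 57.7 CPM in control and 137.9 CPM in 4A1 KO, so no library overlapped the other genotype among all 8 (exact permutation p = 0.0286, the smallest that 4 against 4 allows).

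Egr3 behaved differently from its relatives. Its level was 37.0, 29.2 and 39.5 CPM in controls 2, 3 and 4 and 45.3, 21.7 and 32.7 CPM in the 4A1 KO libraries. Pair 2 was higher in 4A1 KO and pairs 3 and 4 were lower, and the groups overlapped. The log2 fold change was -0.13 ± 0.12 (SE, n = 3, adjusted p = 0.388). It was -0.35 without replicate 2 (adjusted p = 0.0198) and 0.014 without replicate 3 (adjusted p = 0.942).

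TPM, which take transcript length into account, let levels be compared between genes. The summed TPM of Egr1, Egr2 and Egr3 was 117.5 ± 38.8 (SD, n = 3) in controls and 248.3 ± 23.3 in 4A1 KO. Over all 8 libraries it ran from 84.4 to 171.5 in controls and from 229.6 to 348.6 in 4A1 KO, without overlap (exact permutation p = 0.0286). Egr3 supplied 17.6 ± 3.1% of the EGR TPM in controls and 7.62 ± 2.97% in 4A1 KO (SD, n = 3), and again the 8 libraries did not overlap (exact permutation p = 0.0286). The ratio of Egr2 to Egr3 TPM went from 2.28 ± 0.87 to 6.45 ± 3.27 (exact permutation p = 0.0286 over 8 libraries). The shares of Egr1 (43.6 ± 12.7% and 49.5 ± 4.5%) and Egr2 (38.8 ± 13.0% and 42.8 ± 7.5%) overlapped between genotypes. Of these tests of ratios and sums, 11 were run on the 8 libraries and their p-values are not adjusted.

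**Figure D2:**
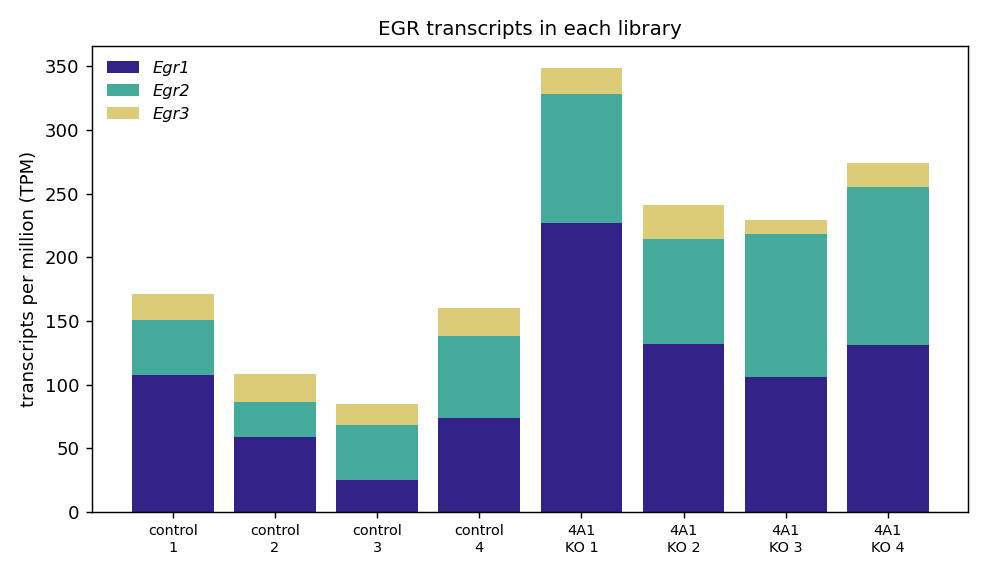
Stacked TPM (vertical axis, from 0) of Egr1, Egr2 and Egr3 in each of the 8 libraries (horizontal axis). The summed bars of the 4 4A1 KO libraries, 229.6 to 348.6 TPM, are all taller than those of the 4 controls, 84.4 to 171.5 TPM, while the Egr3 segment at the top stays between 11.5 and 26.2 TPM.

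Nab2, the EGR corepressor, was counted at 10.3, 12.8 and 12.2 CPM in controls 2, 3 and 4 and at 14.1, 17.5 and 15.9 CPM in 4A1 KO. The fit gave a log2 fold change of 0.43 ± 0.08 (SE, n = 3), which fell short of the fold limit at an adjusted p of 0.00257. The pairs 2, 3 and 4 were close to each other at 0.46, 0.44 and 0.38, while pair 1, outside the fit, gave 0.16. Every 4A1 KO library was above every control also among all 8 (exact permutation p = 0.0286). Such separation of the 8 libraries was seen in 4 of the 10 genes (Egr2, Nab2, Nr4a2 and Nr4a3) and in 17.2% of 14211 genes. EGR TPM per Nab2 TPM was 12.7 ± 3.9 in controls and 19.7 ± 2.4 in 4A1 KO (SD, n = 3), and the 8 libraries overlapped (exact unpaired permutation p = 0.0571). This ratio was higher in 4A1 KO in 4 of 4 pairs, and no paired test was run on it. Nab2 lies at chr10:127496786-127504458 on the minus strand (GRCm39) and overlaps Stat6 by 77 bases, Nemp1 by 1689 bases and the non-coding Gm16229 by 1646 bases, all on the opposite strand. Stat6, which transmits the IL4 signal, had a log2 fold change of 0.43 ± 0.05 (adjusted p = 1.00e-04) and Nemp1 one of -0.45 ± 0.10 (adjusted p = 0.00394). Counting used the strand, and the part of the overlaps in the Nab2 value was not tested.

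Among the NR4A receptors, Nr4a1 was the most abundant, at a mean of 8.18 TPM over the 6 libraries, against 2.30 for Nr4a3 and 0.607 for Nr4a2. Nr4a1 was counted at 11.4, 5.68 and 8.81 CPM in controls 2, 3 and 4 and at 16.8, 7.91 and 10.1 CPM in 4A1 KO. It was higher in each 4A1 KO library than in the control of the same number, but the groups overlapped, since control 2 was above 4A1 KO 3 and 4A1 KO 4. The fitted log2 fold change was 0.41 ± 0.11 (SE, n = 3, adjusted p = 0.0106), under the fold limit. Without replicate 4 it was 0.52 (adjusted p = 0.00253) and passed. Its adjusted p was over 0.05 without replicate 2 (0.33, adjusted p = 0.0943), with no replicate block (0.42, adjusted p = 0.340) and with all 8 libraries by batch and sex (0.30, adjusted p = 0.1001). A non-coding gene on the same strand, Gm56721, which has no row in the count table, overlaps Nr4a1 by 2740 bases, and its part in the value was not tested.

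Nr4a3 was counted at 3.61, 6.21 and 4.98 CPM in controls 2, 3 and 4 and at 7.76, 8.97 and 7.33 CPM in 4A1 KO. The groups did not overlap, nor did they with replicate 1, at 5.17 CPM in control and 7.62 CPM in 4A1 KO (exact permutation p = 0.0286). The log2 fold change was 0.72 ± 0.14 (SE, n = 3, adjusted p = 0.00226). The order of the replicates was not that of Nr4a1, since replicate 3 was the highest for Nr4a3 and the lowest for Nr4a1 in both genotypes.

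Nr4a2 was scarce. It was covered by 24, 32 and 46 counts in controls 2, 3 and 4 and by 55, 55 and 58 counts in 4A1 KO, or 0.594, 0.770 and 1.06 CPM against 1.43, 1.36 and 1.35 CPM. The log2 fold change was 0.78 ± 0.24 (SE, n = 3, adjusted p = 0.0241). Replicate 1 barely differed, at 1.02 CPM in control and 1.08 CPM in 4A1 KO. This call did not last without replicate 2 (0.57, adjusted p = 0.121), without replicate 3 (0.77, adjusted p = 0.0722) or under DESeq2 with shrinkage (0.40, adjusted p = 0.153).

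The summed NR4A TPM was 9.16 ± 1.71 in controls and 13.0 ± 3.1 in 4A1 KO (SD, n = 3) and overlapped over the 8 libraries (exact unpaired permutation p = 0.2), although it was higher in 4A1 KO in 4 of 4 pairs. Nr4a1 made up 74.5 ± 10.2% of it in controls and 71.0 ± 9.4% in 4A1 KO, and these shares overlapped as well (exact unpaired permutation p = 0.6), while being lower in 4A1 KO in 4 of 4 pairs. No paired test was run on these sums and shares.

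The IER genes are grouped by their early response and not by a shared fold. IER2 and IER5 are nuclear proteins related in sequence, and IER3 is an unrelated protein linked to survival signalling. Ier5 was counted at 242.7, 173.5 and 204.1 CPM in controls 2, 3 and 4 and at 213.4, 207.8 and 174.7 CPM in 4A1 KO, with a log2 fold change of -0.05 ± 0.09 (SE, n = 3, adjusted p = 0.652). Ier2 was counted at 64.5, 63.3 and 106.7 CPM in controls and at 62.7, 65.0 and 80.6 CPM in 4A1 KO (-0.14 ± 0.08, adjusted p = 0.193). Ier3 was near the lower limit of the test, with 16 to 36 counts in each of controls 2 to 4 and 22 to 30 counts in the matching 4A1 KO libraries (0.05 ± 0.32, adjusted p = 0.904). The groups overlapped for all 3 genes. The standard error of Ier3 was the largest of the 10 genes. Ier5 lies at chr1:154972107-154975382 (GRCm39) and, in the current GENCODE annotation, wholly within a longer non-coding transcript on the same strand, Gm69473, which has no row in the count table, so reads from it could not be told from those of Ier5.

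**Figure D3:**
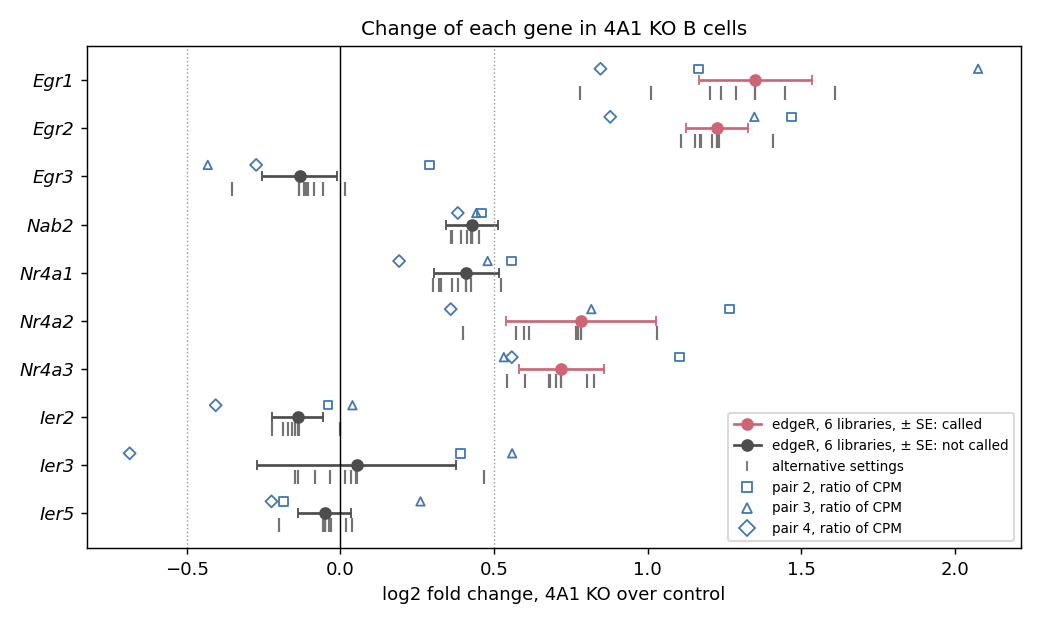
Fitted log2 fold change of the 10 genes (horizontal axis, 4A1 KO over control) with its SE (filled circles, red where called), the log2 CPM ratio of pairs 2 to 4 (open blue symbols) and the value under each alternative setting (grey ticks). Egr1 and Egr2 lie above 0.5 under every setting shown, Nab2 stays between 0.36 and 0.45, and the ticks of Egr3, Ier2, Ier3 and Ier5 fall on both sides of 0.

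On TPM, tested with limma on log2(TPM + 1), 3 of the 9 genes tested were higher, Egr1 (difference 1.33, adjusted p = 0.00407), Egr2 (1.29, adjusted p = 7.93e-04) and Nr4a3 (0.51, adjusted p = 0.0146), and none was lower. Nr4a2, with a mean under 1 TPM, was not tested. Over the 12976 genes tested, 8.42% were called higher and 11.8% lower. The pseudocount makes the differences of low genes such as Nr4a3 smaller. By mean TPM over the 6 libraries the order of levels was Ier5 (117.1), Ier2 (91.8), Egr1 (87.8), Egr2 (75.6), Egr3 (19.4), Nab2 (11.03), Nr4a1 (8.18), Nr4a3 (2.30), Ier3 (1.04) and Nr4a2 (0.607). The order was not the same in both genotypes. In controls 2 to 4, Ier5 (99.7 to 138.2 TPM) and Ier2 (78.1 to 136.7) lay above every value of Egr1 (25.2 to 74.0) and Egr2 (27.4 to 63.7), although Ier5 and Ier2 overlapped, as did Egr1 and Egr2. In 4A1 KO 2 to 4, Egr1 (122.9 ± 14.6, SD), Ier5 (114.4 ± 10.2), Egr2 (106.4 ± 21.2) and Ier2 (85.7 ± 13.6) overlapped with their neighbours in this order.

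Several of the genes varied widely between libraries of one genotype. These libraries differ in mouse and in the combination of batch and sex, and these sources of spread cannot be told apart. The SD of log2(CPM + 0.5) over the 4 controls, in which the added 0.5 narrows the spread of scarce genes, was 0.90 for Egr1, wider than in 99.7% of 11829 genes averaging 1 CPM or more, 0.58 for Nr4a1 (98.2%) and 0.45 for Egr2 (95.0%), against a median of 0.15. In 4A1 KO it was 0.51 for Egr1, 0.52 for Nr4a1 and 0.45 for Egr3, against a median of 0.14. Single libraries carried several of these values. In controls the SD was 0.46 for Egr1 without control 3 and 0.29 for Egr2 without control 4. In 4A1 KO it was 0.18 for Egr1 without 4A1 KO 1, the replicate of low viability, and 0.23 for Egr3 without 4A1 KO 3. Nab2 was near the median in both genotypes, at 0.15 and 0.14, but at 0.044 without control 2 and 0.087 without 4A1 KO 3. Nr4a3, at 0.29 in controls (0.16 without control 2), was below the median in 4A1 KO, at 0.12 (0.039 without 4A1 KO 3). For Nr4a2, at about 1 CPM, the SD of log2 CPM with nothing added was 0.39 in controls and 0.18 in 4A1 KO. Egr1, Egr3 and Nr4a1 were lowest in replicate 3 in both genotypes, and control 3 had the lowest value of its group in 6 of the 10 genes. Control 1 had the highest in 5 and 4A1 KO 1 in 4. The effect of genotype did not differ detectably between batches or between sexes in any of the 10 genes (edgeR interaction terms on 8 libraries). The lowest unadjusted p was 0.0464, for Egr3 by batch (log2 difference -0.47 ± 0.20, adjusted p = 0.999), and 1 gene and 0 genes of 14211 passed an adjusted p of 0.05 for batch and sex.

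**Figure D4:**
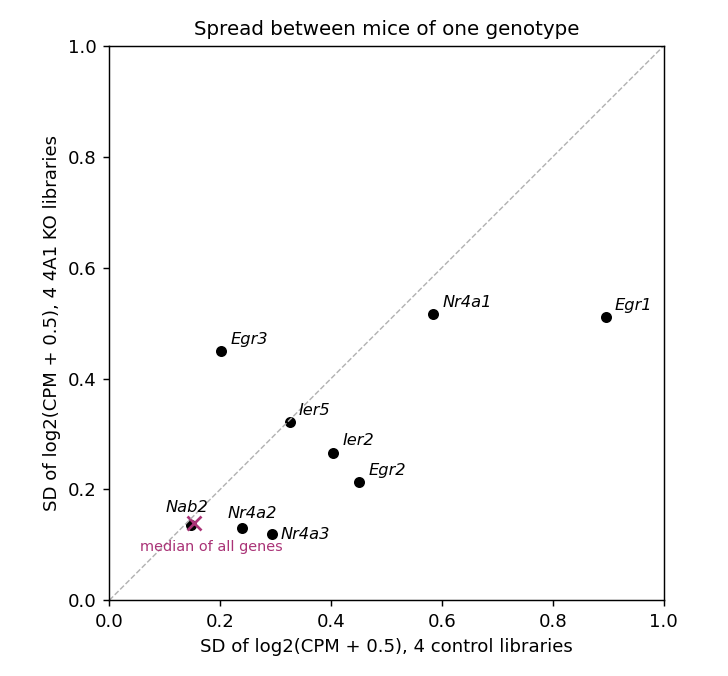
SD of log2(CPM + 0.5) over the 4 control libraries (horizontal axis) and the 4 4A1 KO libraries (vertical axis) for the 9 genes averaging 1 CPM or more (Ier3 did not), with the median of 11829 genes as a cross and a dashed line of equal spread. Egr1 and Nr4a1 lie far from the cross on both axes, and Egr3 is the gene with the wider spread in 4A1 KO.

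The genes fell into compact and longer ones. The median span was 6.21 kb, against 19.3 kb over 21612 protein-coding genes in GENCODE, and their canonical transcripts had a median of 2 exons against 7. Nab2, Nr4a1, Nr4a2 and Nr4a3 had 7, 7, 8 and 8 exons and the other genes 1 or 2, and Nr4a1 (20.7 kb) and Nr4a3 (41.3 kb) were longer than the median gene. The median 5′ UTR was 451.5 bases long against 205.0, but ran from 43 bases in Ier3 to 2131 in Nab2, and its GC content was 60.5% against 60.6%. The pentamer ATTTA, the core of AU-rich elements that recruit mRNA decay factors, was found at least 3 times in the 3′ UTR of 7 of the 10 genes and of 38.66% of 20776 genes. The copy number was 2 in Egr1 and Ier5, 3 in Egr2, Nab2, Nr4a1 and Nr4a2, 5 in Nr4a3 and Ier3, 7 in Egr3 and 0 in Ier2. The 30-base stretches below, from GRCm39 transcripts, are the first with the most copies in the 3′ UTR of 3 genes in which such a stretch held 2, with ATTTA in capitals.
Nr4a1: gATTTAtatttgtgtattttcctggATTTA
Ier3: ctccgtgtctaattaatATTTAtgtATTTA
Nab2: ATTTAttttgttattttggaataaaATTTA

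Of the closest relatives and partners, Egr4, Nab1, Ier5l and the NR4A dimer partners Rxra, Rxrb and Rxrg, 5 of 6 were tested. Of those 5, 0 were called higher and 1 lower (11.6% and 13.7% over all genes tested). Their median log2 fold change was -0.21 against 0.0066 over all genes tested. Rxra, the retinoid X receptor that pairs with NR4A1 and NR4A2, fell from 14.7, 17.2 and 18.8 CPM in controls 2, 3 and 4 to 8.02, 9.71 and 12.6 CPM in 4A1 KO (-0.75 ± 0.10, adjusted p = 2.30e-04). Nab1, the other NAB corepressor, stood at 121.2, 110.9 and 118.9 CPM in controls 2, 3 and 4 and 106.8, 98.3 and 97.95 CPM in 4A1 KO. Its log2 fold change of -0.21 ± 0.05 (adjusted p = 0.00687) was opposite in sign to that of Nab2 and under the fold limit. Rxrb gave 0.28 ± 0.05 (adjusted p = 0.00216), Egr4 0.38 ± 0.32 (adjusted p = 0.348) and Ier5l -0.59 ± 0.26 (adjusted p = 0.0861). Rxrg had no counts.

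Of 19 transcription factors that act upstream of these genes, 2 were higher and none was lower, with a median of 0.11. The share called higher was near the 11.6% over all genes tested. Srf was at 0.11 ± 0.05 (adjusted p = 0.0887). Mef2d, which controls Nr4a1 in T cells, rose (0.55 ± 0.07, adjusted p = 1.81e-04), and the CREB coactivator genes Crtc1 (0.49 ± 0.07, adjusted p = 3.49e-04) and Crtc2 (0.39 ± 0.04, adjusted p = 1.37e-04) were under the fold limit. The other gene called was Crem (0.76 ± 0.12, adjusted p = 8.41e-04), a CREB relative, named after its value was seen, as was Srf. The count was 4 without replicate 2 and 1 without replicate 3, where Mef2d was at 0.45. Of 16 genes of the RAS-ERK pathway, 3 were higher, among them Sos1 (0.71 ± 0.07) and Braf (0.60 ± 0.07), and 2 were lower, with a median of 0.02. Over all genes tested these shares were 11.6% and 13.7%, and the share called lower was near it. The lower genes, Hras (-0.54 ± 0.08) and Rps6ka1 (-0.54 ± 0.08), were named after their values were seen, and 1 was called lower without replicate 2 and 1 without replicate 3.

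Of 9 genes that ERK signalling induces and whose products mostly damp it, 4 were higher and none was lower (11.6% and 13.7% over all genes tested), with a median of 0.46. Spred1, an inhibitor of RAS activation, rose from 16.5, 15.9 and 18.8 CPM in controls 2, 3 and 4 to 32.0, 34.4 and 30.4 CPM in 4A1 KO (0.92 ± 0.09, adjusted p = 6.29e-05). Spry2, another inhibitor, rose by 1.15 ± 0.17 (adjusted p = 5.77e-04) and the ERK-induced ETS factor gene Etv5 by 1.00 ± 0.19 (adjusted p = 0.00232), both from under 2 CPM in controls 2 to 4. The remaining call was Spry1 (1.30 ± 0.26, adjusted p = 0.00267), named after its value was seen.

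Of 38 other immediate early and early genes, 36 were tested, 14 were higher and 1 was lower (11.6% and 13.7% over all genes tested), with a median of 0.41. Trib1, a pseudokinase gene, rose most, from 12.1, 14.9 and 17.8 CPM in controls 2, 3 and 4 to 56.3, 65.6 and 55.4 CPM in 4A1 KO (1.99 ± 0.11, adjusted p = 9.59e-06). The polo-like kinase gene Plk3 rose by 0.67 ± 0.08 (adjusted p = 1.48e-04), and Jund, an AP-1 subunit gene, fell by 0.51 on the log2 scale, just past the fold limit (SE 0.05, adjusted p = 5.04e-05). The other AP-1 genes of the list differed among themselves. Fosl1 (1.12 ± 0.18, adjusted p = 9.22e-04) and Atf3 (0.66 ± 0.22, adjusted p = 0.0308) were called higher. Junb (0.25 ± 0.05, adjusted p = 0.00271) was under the fold limit, and Fos (-0.07 ± 0.18), Fosb (-0.09 ± 0.10), Fosl2 (-0.40 ± 0.29) and Jun (0.46 ± 0.22) did not pass, with adjusted p-values from 0.108 to 0.776. Myc was at -0.01 ± 0.13 (adjusted p = 0.939). These AP-1 genes and Myc were named after their values were seen. The count of higher genes was 8 without replicate 3, 17 without replicate 4 and 10 with no replicate block. Jund was not called without replicate 4 or with all 8 libraries.

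**Figure D5:**
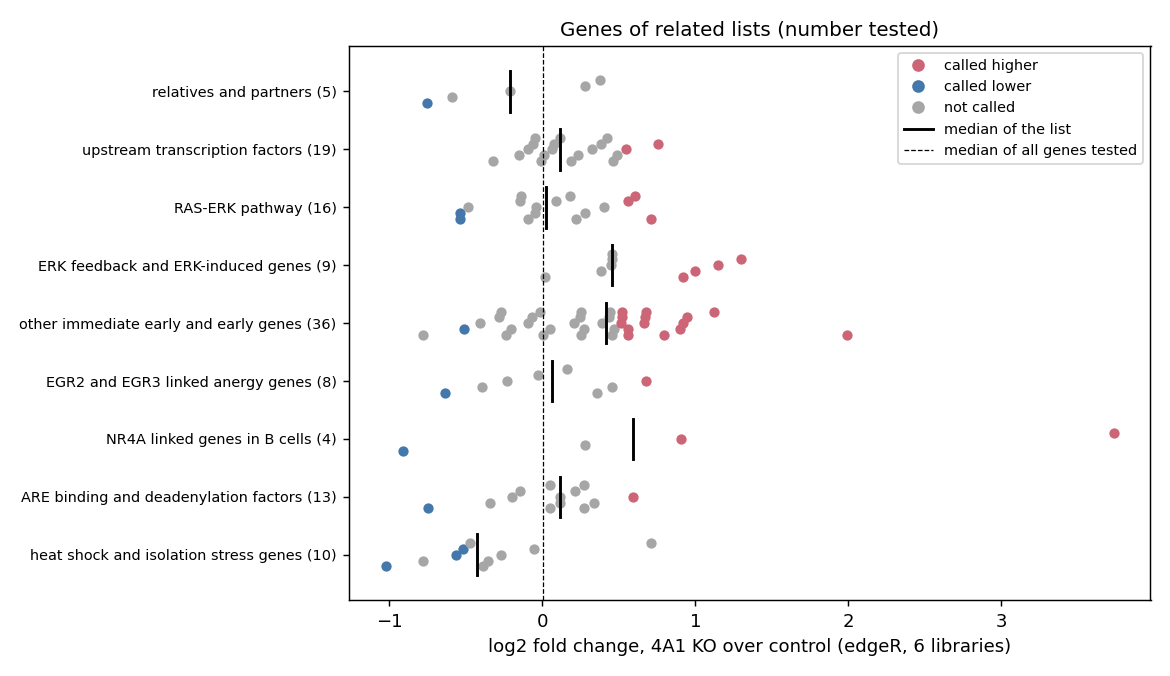
Fitted log2 fold change (horizontal axis, 4A1 KO over control) of the tested genes in the 9 related lists (rows, number tested in parentheses), red where called higher, blue where called lower, with a black bar at each list's median and a dashed line at the median of all genes. The ERK-induced and the other immediate early genes have medians of 0.46 and 0.41, and the heat shock genes one of -0.43.

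Of the genes linked to EGR2 and EGR3 in lymphocyte anergy, 8 of 9 were tested, and 1 was higher, Tob1, an antiproliferative gene (0.68 ± 0.13, adjusted p = 0.00238), and 1 lower, Socs1, a cytokine signalling inhibitor gene (-0.63 ± 0.14, adjusted p = 0.00398), with a median of 0.07. These shares were near those over all genes tested (11.6% and 13.7%). The ubiquitin ligase gene Itch was at 0.36 ± 0.06 (adjusted p = 0.00115). Of 4 genes linked to NR4A factors in B cells, Ccl3 and Ccl4, which encode chemokines, were higher and Batf was lower. Ccl4 was almost silent, at 0 to 0.124 CPM in controls 2 to 4 and 0.537 to 1.04 CPM in 4A1 KO. Batf, an AP-1 family gene of activated B cells, fell by 0.91 on the log2 scale (SE 0.10, adjusted p = 9.06e-05), and Cd86, a costimulatory molecule gene, was at 0.28 ± 0.09 (adjusted p = 0.0304). Ccl3 (0.91 ± 0.31, adjusted p = 0.0343), named after its value was seen, lost its call without any 1 of the 3 replicates.

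Of 13 genes for AU-rich element binding and deadenylation factors, 1 was higher, Pan3 (0.59 ± 0.06), and 1 lower, Cnot6 (-0.74 ± 0.05), both parts of deadenylase complexes, with a median of 0.11. Both shares were under those over all genes tested (11.6% and 13.7%). Zfp36l1, which binds AU-rich elements, was at 0.34 ± 0.06 (adjusted p = 0.00153). Of 11 heat shock genes, which like immediate early genes respond to cell isolation, 10 were tested, 0 were higher and 3 were lower (11.6% and 13.7% over all genes tested), with a median of -0.43. Hspa8, a constitutive chaperone gene, fell by 1.02 (SE 0.06), Hsph1 by 0.56 (SE 0.05) and Dnaja1, named after its value was seen, by 0.52 (SE 0.05). Hspd1 was at -0.47 ± 0.04. The summed level of the list was 14335 to 15244 CPM in controls and 11831 to 12248 CPM in 4A1 KO over 8 libraries, and its part in the results above was not tested. Hsp90ab1, at 7912 to 8719 CPM, made up the largest part of this sum. Hspa1a (0.71 ± 0.47, adjusted p = 0.233) and Hspa1b (-0.78 ± 0.50, adjusted p = 0.218) were under 1 CPM in every library and did not pass. Hsp90ab1, Hspa1a and Hspa1b were named after their values were seen.

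Over the 8 libraries, 31727557 to 43210858 reads were counted on genes. Eif4a1, the targeted gene, was at 747.8 to 939.2 CPM in controls and 556.0 to 689.1 CPM in 4A1 KO over 8 libraries (-0.44 ± 0.05, adjusted p = 1.15e-04), a gene-level count that includes exons outside the deleted part. B cell markers were high in every library, with 3732 to 3980 summed CPM over 7 genes in controls and 3027 to 3293 CPM in 4A1 KO, where Cd79a, Cd79b and Cd22 were called lower. The summed level of 11 fibroblast genes, the origin of the feeder cells, was 27.7 to 48.2 CPM in controls and 23.4 to 35.2 CPM in 4A1 KO, with Lum at 0 in all libraries and Col1a1 at 5.24 to 27.4 CPM. In that list Fn1 was called higher (0.86, adjusted p = 0.0215) and Col3a1 lower (-1.57, adjusted p = 0.0437). Thy1, at 4.67 to 31.3 CPM, made up the largest part of the sum in every batch B library. It was just under the fold limit (-0.4997, adjusted p = 0.00521). That of 6 T cell genes was 14.5 to 24.5 and 10.4 to 19.5 CPM, nearly all of it from Lck (9.96 to 23.3 CPM), with Cd3g at 0. That of 6 myeloid genes was 4.09 to 8.14 and 7.31 to 8.96 CPM, of which Adgre1 was called higher (0.62, adjusted p = 0.00687). The 4 plasma cell genes summed to 165.3 to 201.4 CPM in controls and 84.8 to 112.4 CPM in 4A1 KO. Most of it was Xbp1, at 128.4 to 164.3 CPM in controls and 68.6 to 86.6 CPM in 4A1 KO. Xbp1 (-0.94), Sdc1 (-1.22) and Prdm1 (-0.64) were called lower, and Jchain (0.21, adjusted p = 0.692) was not. The part of these markers in the results above was not tested.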

How the data were processed

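Reads were trimmed with Trim Galore 0.6.6, mapped to GRCm39 with HISAT2 2.1.0 and counted by the authors with Seqmonk over merged isoforms with strand-specific paired reads, and the deposited counts are raw. How reads with several mapping places were counted is not given in the sources used here. The deposited TPM were calculated by the authors with StringTie 2.1.1. Tool versions are from the submitters' processing notes and the study's methods.

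Counts of replicates 2 to 4 were fitted with edgeR 4.0.16 (R 4.3.3): filterByExpr, TMM, and a quasi-likelihood fit on genotype with batch and sex as covariates, which in 6 libraries equals the replicate number as a block. Calls needed a Benjamini-Hochberg adjusted p under 0.05 over all genes and an absolute log2 fold change above 0.5. CPM are TMM-normalized. TPM with a mean of at least 1 were tested with limma 3.58.1 on log2(TPM + 1). Exact permutation tests used 8 libraries, and all tests are two-sided. Same-numbered libraries share batch and sex by their labels, and their deviations from the genotype means correlated at 0.67, 0.66 and 0.52 across 11829 genes. Other pairs averaged -0.31, which is not separate evidence. Centring each genotype on its own mean makes their average negative whenever that of same-numbered pairs is positive.

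The 10 genes and all lists were chosen with earlier results of these data known. Named genes are all 10, their relatives and partners, the 3 genes with the smallest adjusted p in each other list, and Eif4a1. Among the list genes so chosen, 1 is not reported here. Other names are marked as chosen after their values were seen, apart from genes that overlap one of the 10 and cell type markers. In simulated counts, edgeR recovered 198 of 200 genes changed 2-fold among 14068, with 7 false calls, and called 0 of 14079 when none was changed. On simulated TPM, limma recovered 200 of 200 among 12877, with 0 false calls. In both simulations all genes shared a small spread without batch effects, and only well-covered genes were changed. The recovery therefore does not carry over to scarce genes such as Nr4a2 and Ier3 or widely varying ones such as Egr1. Alternatives were DESeq2 1.42.0 size factors and shrinkage, no low-value filter, a TPM pseudocount of 0.1, no replicate block, all 8 libraries, and leaving out each replicate.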

Additional observations from a re-analysis of the deposited data

How the results depend on the processing

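Across the alternatives the number of the 10 genes called higher in counts (edgeR or DESeq2) was 3 to 5, and none was called lower under any of them. With no replicate block it was 4, as with the block, and the pairing changed no call among the 10 genes, but Socs1 (-0.68, adjusted p = 0.120) and Batf (-0.93, adjusted p = 0.0609) lost theirs, and the higher calls among the other immediate early genes went from 14 to 10. Egr1 ranged from 0.78 to 1.61 and Egr2 from 1.11 to 1.41, and both stayed called in counts. On TPM, with no filter on low values, 1 gene was called (Egr2), since Egr1 (adjusted p = 0.0523) and Nr4a3 (adjusted p = 0.0759) missed the threshold. Nr4a3 on TPM also missed it, or the fold limit, with all 8 libraries (0.46), without replicate 2 (0.41) and without replicate 3 (adjusted p = 0.0508). Egr3, Ier2, Ier3 and Ier5, which had no call, changed sign. Leaving out a replicate gave -0.35 to 0.014 for Egr3, -0.22 to 0.00023 for Ier2, -0.15 to 0.47 for Ier3 and -0.20 to 0.038 for Ier5. The same on TPM gave -0.32 to 0.030 for Egr3, -0.092 for Ier3 without replicate 3 (the others left it under the filter) and -0.22 to 0.034 for Ier5. With all 8 libraries Ier3 was -0.084 with batch and sex, -0.035 with the replicate block, and -0.030 on TPM. The cause of these changes was not tested. Nr4a2 and Ier3 had 24 to 58 and 16 to 48 counts per library, the fewest of the 10 genes, and the widest standard errors.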
